A study of Mus musculus with 12 samples.

Results

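The comparison described here is the genotype-by-stimulation contrast of an RNA sequencing study of Otub1 deletion in mouse CD8 T cells, and it uses all 12 of the 12 libraries of the study. For each gene, the difference between knockout and wild type in fresh cells was subtracted from the difference between knockout and wild type in stimulated cells, both on the log2 scale. This value is called the interaction. It is above 0 where the knockout lay higher, relative to wild type, after stimulation than before it, and a gene with a called value above or below 0 is said to have shifted up or down. All 4 groups had 3 libraries, came from spleen of C57BL/6 mice of 6 to 8 weeks and carried OT-I, a transgenic T cell receptor for an ovalbumin peptide. The groups were wild type (WT-OT-I) and knockout (OTUB1-CD4Cre-OT-I, in which CD4-Cre deletes Otub1 in developing T cells), each untreated, called fresh here, and treated for 24 h with plate-bound anti-CD3 at 1 µg/ml and anti-CD28 at 1 µg/ml. Untreated cells are not described as cultured, so stimulation and time in culture cannot be told apart. The design text names naive CD8 T cells, a cell type tag names splenic dendritic cells, and the extract text calls all cells fresh. Of the coreceptor genes of CD8 T cells, Cd8a had a mean level of 10.01 over all libraries and Cd8b1 one of 9.51 on the log2 CPM scale (log2 of counts per gene scaled to equal library totals). Itgax and Flt3, genes of dendritic cells, were at 4.24 and 3.44, and Cd4 was at 2.24. The 14 dendritic cell markers together, class II genes shared with B cells among them, were at 1315 to 1974 CPM in fresh and 109 to 129 CPM in stimulated libraries.

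OTUB1 is a deubiquitinase of the OTU family. It removes ubiquitin chains from proteins, and it also binds ubiquitin-conjugating enzymes and blocks them without cutting a chain. A naive CD8 T cell rests until its receptor meets antigen. Signals from the CD3 chains and from the costimulatory receptor CD28 then start growth, glycolysis, lipid synthesis, division and the making of cytotoxic proteins, while genes of the resting state are shut off. Interferons act through STAT proteins on a separate set of genes for antiviral defence and antigen processing.

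Depth ranged from 15064488 to 25920035 gene counts per library, and 12759 of 23420 listed genes passed the filter on low counts. Levels are given as CPM, read counts of a gene after scaling every library to the same total. Several libraries stood apart. Fresh wild type 1 had the highest summed level of interferon response genes in its group, stimulated wild type 1 the highest summed level of mitosis genes in its group, and stimulated knockout 2 the highest summed levels of glycolysis and HIF-1 target genes in its group. One library each of fresh wild type (3), fresh knockout (2) and stimulated knockout (3) had 5958 to 9563 Y-linked reads against 2 to 10 in the other libraries, so these groups hold more than 1 animal, and no library of stimulated wild type was among them. Values without these libraries stand beside the results they touch. Whether each replicate was a different mouse is not in the labels, and p-values here measure spread among libraries, which may be technical in part.

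The knockout effect differed between the states for 288 of 12759 genes, 2.26% of those tested (edgeR quasi-likelihood test, Benjamini-Hochberg adjusted p under 0.05). Of these, 89 shifted up (0.698%) and 199 shifted down (1.56%). For reference, 153 genes (1.20%) were called between the genotypes in fresh cells, 125 higher (0.980%) and 28 lower (0.219%) in the knockout. In stimulated cells 1187 (9.30%) were called, 648 higher (5.08%) and 539 lower (4.22%). Stimulation itself changed 82.3% of genes in wild type (40.8% up and 41.4% down) and 83.9% in knockout (41.7% up and 42.2% down), and these contrasts share the libraries of the interaction. Most shifts were small. The median size was 1.48-fold among genes that shifted up and 1.40-fold among those that shifted down, and 15 and 19 genes reached 2-fold. The median interaction over all genes tested was -0.0036. Genes that shifted up had a median knockout effect of -0.13 in fresh and 0.45 in stimulated cells (log2), and those that shifted down had 0.13 and -0.37.

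The stimulated state held most of the called differences. Of the 89 genes that shifted up, 72 were called between the genotypes in stimulated cells only, 5 in fresh cells only, 1 in both and 11 in neither. Of the 199 that shifted down, the numbers were 158, 16, 5 and 20. The estimates had opposite signs in the 2 states for 80 and 160 genes, with the larger size after stimulation in 74 and 164. Choosing genes by the difference between the states favours opposite signs, and 4 of the 288 were called in both states with opposite signs. The individual libraries of knockout and wild type did not overlap in either state for 34 of the 89 and 76 of the 199. Choosing genes by the interaction favours such separation, and the share over all genes tested was not counted.

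**Figure D1:**
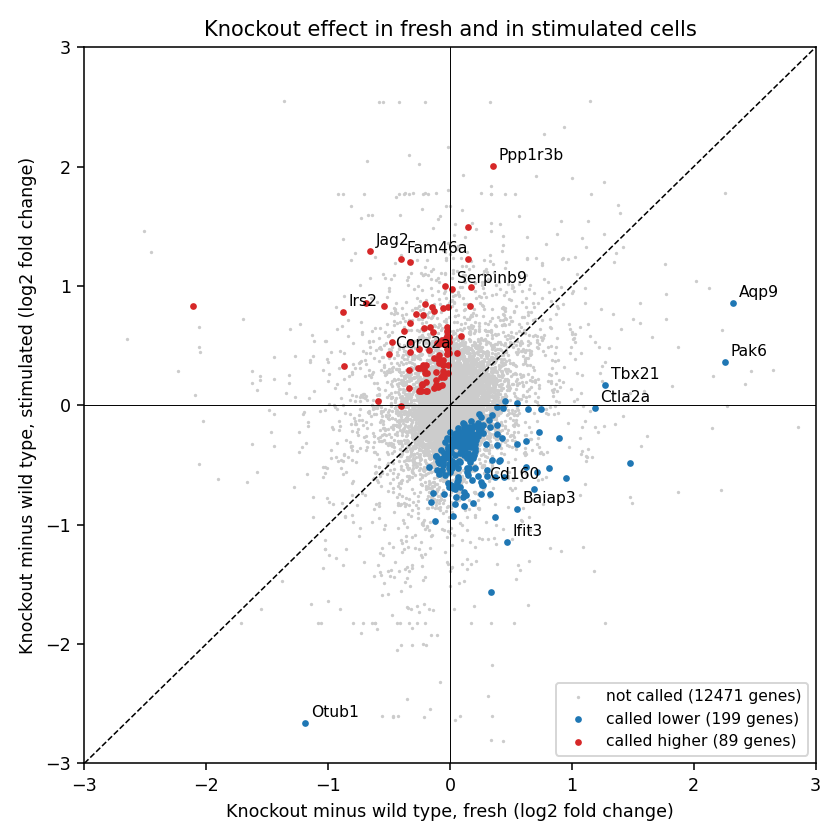
Each point is a gene, with its knockout minus wild type log2 fold change in fresh cells on the horizontal axis and in stimulated cells on the vertical axis. The dashed line marks equal effects, 89 genes called higher lie above it and 199 called lower lie below it, and 35 genes outside the axis limits of 3 and -3 are not drawn, none of them called.

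Otub1 itself (chr19:7198206-7206284, minus strand, GRCm38) showed the check on the labels and one of the largest shifts. It was at 72.6, 70.8 and 45.1 CPM in fresh wild type, 25.4, 28.8 and 28.6 in fresh knockout, 85.7, 100.1 and 96.1 in stimulated wild type and 16.2, 13.8 and 14.5 in stimulated knockout. The knockout libraries lay below every wild-type library in both states, and fresh wild type 3 was the lowest of the wild-type libraries. The knockout effect was -1.19 (SE 0.14, edgeR adjusted p 0.000559) in fresh cells and -2.66 (SE 0.14, edgeR adjusted p 1.35e-07) in stimulated cells. The interaction was -1.47 (SE 0.20, edgeR adjusted p 0.00329). Reads remained in the knockout in both states, and the files do not say which exons they came from. In bulk samples, fewer cells that express a gene and less RNA per cell cannot be told apart. The 6 tested genes within 100000 bases of Otub1 had edgeR adjusted p-values from 0.354 (Mark2) to 0.995 (Naa40).

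A small group of genes was called between the genotypes in both states with opposite signs. They were Baiap3, Tnfsf14 and Gnptab, higher in the knockout when fresh and lower when stimulated, and Coro2a, which did the reverse. Baiap3 (chr17:25242659-25256364, minus strand) encodes a relative of the vesicle priming proteins, and it was at 95.9, 78.8 and 82.6 CPM in fresh wild type, 124, 134 and 119 in fresh knockout, 2.81, 1.64 and 2.04 in stimulated wild type and 0.774, 1.41 and 1.42 in stimulated knockout. Stimulation lowered the gene to a small share of its fresh level in both genotypes, and the genotypes did not overlap in either state. Its interaction was -1.42 (SE 0.26, edgeR adjusted p 0.0132), from 0.55 (SE 0.10, edgeR adjusted p 0.0171) in fresh and -0.87 (SE 0.24, edgeR adjusted p 0.0373) in stimulated cells, and the call was kept in all 12 leave-one-out fits.

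Tnfsf14 (chr17:57189474-57194181, minus strand), which encodes the costimulatory ligand LIGHT, went the other way with stimulation in both genotypes. It was at 5.53, 5.13 and 4.73 CPM in fresh wild type, 7.58, 7.97 and 8.20 in fresh knockout, 72.1, 78.8 and 90.2 in stimulated wild type and 62.1, 61.6 and 72.6 in stimulated knockout. The knockout was higher in all 3 fresh libraries, and after stimulation 1 knockout library was just above the lowest wild-type library. Its interaction was -0.92 (SE 0.15, edgeR adjusted p 0.00694). Coro2a (chr4:46536937-46601929, minus strand), an actin-binding coronin, was at 25.8, 31.05 and 26.03 CPM in fresh wild type, 17.7, 21.95 and 19.1 in fresh knockout, 63.9, 77.5 and 62.6 in stimulated wild type and 91.7, 84.2 and 98.6 in stimulated knockout. Knockout libraries were the lowest when fresh and the highest when stimulated, and the interaction was 0.93 (SE 0.15, edgeR adjusted p 0.0064). Gnptab (chr10:88379134-88447324, plus strand), an enzyme that tags lysosomal hydrolases with mannose phosphate, was at 66.2 to 67.5 CPM in fresh wild type, 73.4 to 78.2 in fresh knockout, 100.3 to 101 in stimulated wild type and 86.7 to 93.04 in stimulated knockout. The change was small at both times, with an interaction of -0.37 (SE 0.06, edgeR adjusted p 0.00835), and the 4 groups were narrow enough not to overlap. These 3 calls were kept in all 12 leave-one-out fits.

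Aqp9, a channel for water and glycerol, was the other gene besides Otub1 that was called in both states with the same sign. It was at 2.61, 2.33 and 3.53 CPM in fresh wild type, 10.6, 18.6 and 12.4 in fresh knockout, 8.37, 8.91 and 11.01 in stimulated wild type and 14.6, 18.9 and 18.03 in stimulated knockout. The knockout was higher in both states, with effects of 2.32 in fresh and 0.86 in stimulated cells, and the interaction was -1.46 (SE 0.29, edgeR adjusted p 0.0173). This call was lost without fresh wild type 2 or stimulated wild type 3 (edgeR adjusted p up to 0.0715).

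**Figure D2:**
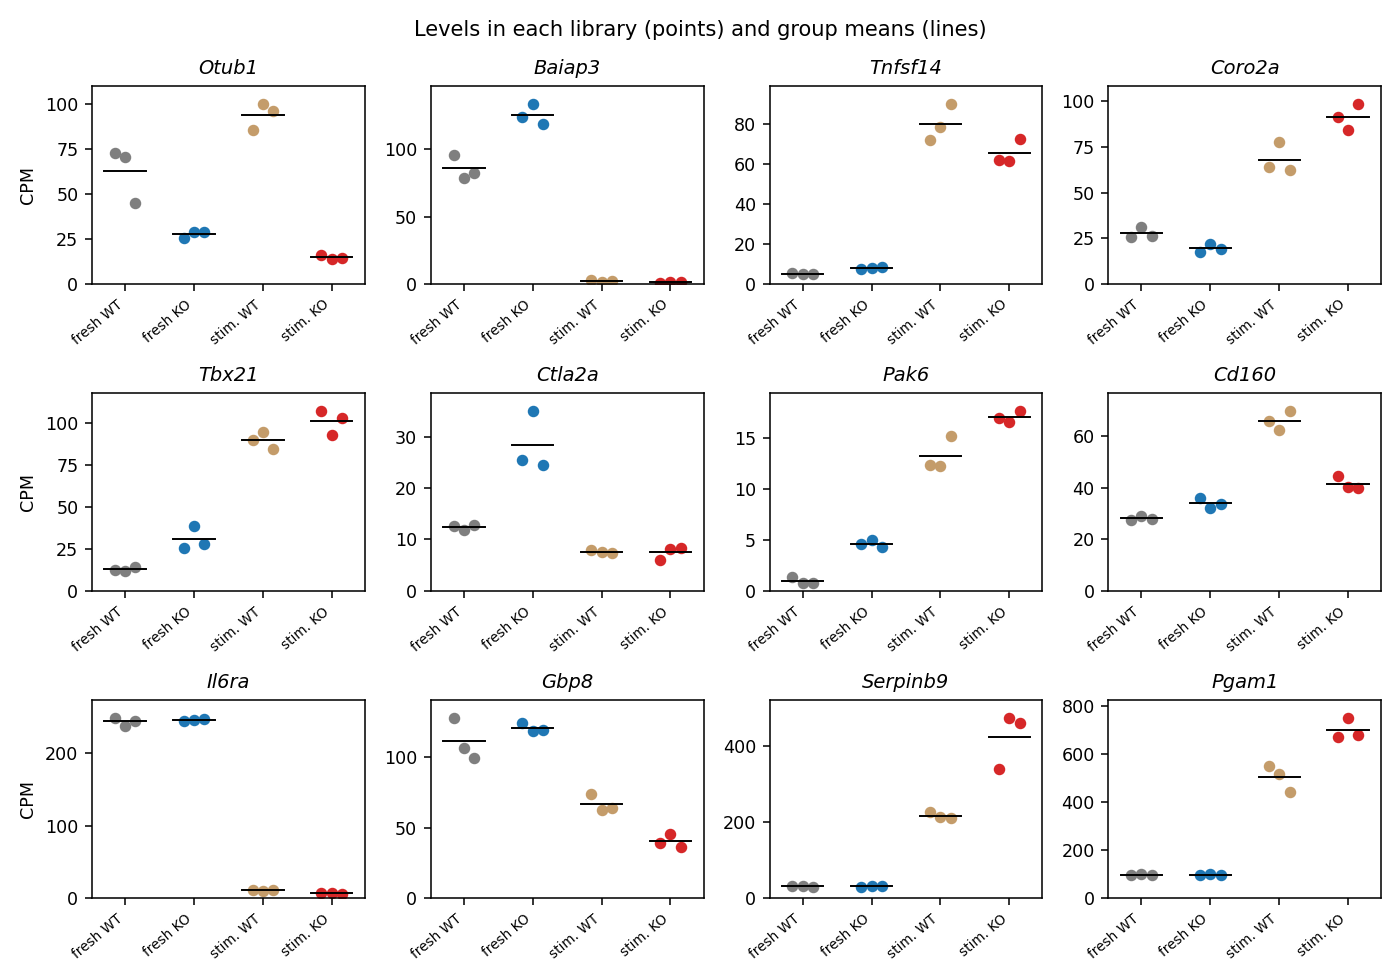
CPM of 12 genes in each of the 12 libraries, with a point per library and a line at the mean of each group of 3. Baiap3, Coro2a and Cd160 separate the genotypes in both states, in opposite order, and Otub1 and Pak6 separate them in both states in the same order. Tbx21, Ctla2a and Tnfsf14 separate them in fresh cells only. Il6ra, Gbp8, Serpinb9 and Pgam1 separate them in stimulated cells only.

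A further set was called between the genotypes in fresh cells and not in stimulated cells. Tbx21 (chr11:97098007-97115331, minus strand) encodes T-bet, which drives effector and memory programmes in CD8 T cells. It was at 12.5, 11.7 and 14.05 CPM in fresh wild type, 25.6, 38.7 and 27.7 in fresh knockout, 89.8, 94.7 and 84.5 in stimulated wild type and 107, 93.00 and 103 in stimulated knockout. All 3 fresh knockout libraries lay above the fresh wild type, while the stimulated groups overlapped. The knockout rose by 1.28 in fresh cells, its effect in stimulated cells was 0.17 (SE 0.11, edgeR adjusted p 0.375), and the interaction was -1.10 (SE 0.17, edgeR adjusted p 0.0064). Ctla2a (chr13:60934155-60936625, minus strand), an inhibitor of cathepsin L-like proteases, was also higher in the fresh knockout, but stimulation lowered it where it raised Tbx21. It was at 12.7, 11.8 and 12.9 CPM in fresh wild type, 25.4, 34.99 and 24.5 in fresh knockout, 7.86, 7.51 and 7.27 in stimulated wild type and 6.00, 8.11 and 8.30 in stimulated knockout. The fresh knockout stood above all other groups, and the interaction was -1.21 (SE 0.20, edgeR adjusted p 0.00868). Nrp2, a neuropilin receptor for semaphorins and VEGF, was at 6.66 to 7.56 CPM in fresh wild type, 12.7 to 13.7 in fresh knockout, 2.70 to 3.20 in stimulated wild type and 2.32 to 2.46 in stimulated knockout, with an interaction of -1.17 (SE 0.16, edgeR adjusted p 0.00457). Its stimulated knockout libraries all lay below the stimulated wild type, with an effect of -0.27 that was not called. The interaction calls of Tbx21, Ctla2a and Nrp2 were kept in all 12 leave-one-out fits.

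Pak6 (chr2:118663045-118698020, plus strand), a p21-activated kinase, had the lowest interaction among genes that met the naming limits, -1.90 (SE 0.24, edgeR adjusted p 0.00329). It was at 1.40, 0.727 and 0.799 CPM in fresh wild type, 4.57, 5.02 and 4.27 in fresh knockout, 12.4, 12.2 and 15.2 in stimulated wild type and 16.99, 16.6 and 17.6 in stimulated knockout. The knockout exceeded wild type in every library pair of both states, and the fresh wild type was near 1 CPM. In CPM, the knockout exceeded wild type by 3.65 CPM in fresh and 3.81 CPM in stimulated cells, so the difference of differences had the opposite sign on that scale. This held for 6 of the 199 genes that shifted down (Pak6, Itgb7, Orai2, Il6st, S1pr1 and Gm11346, the set named after the values were seen) and for none of the 89 that shifted up. G0s2, an inhibitor of the lipase that opens lipid droplets, had a still lower interaction of -1.97 (SE 0.38, edgeR adjusted p 0.016) but an average level under the naming limit of 2 on the log2 CPM scale. It was at 2.67, 3.00 and 3.20 CPM in fresh wild type, 8.41, 7.24 and 9.11 in fresh knockout, 0.852, 0.434 and 0.707 in stimulated wild type and 0.271, 0.628 and 0.559 in stimulated knockout. Its fresh knockout libraries stood above the rest, and without stimulated wild type 3 its call was lost.

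Other genes called between the genotypes in fresh cells with an unadjusted p of at least 0.05 in stimulated cells were weaker. Ccl4, which encodes a chemokine of activated T cells, was at 7.07 to 8.79 CPM in fresh wild type, 12.6 to 15.7 in fresh knockout, 562 to 738 in stimulated wild type and 591 to 698 in stimulated knockout, and its interaction of -0.78 was lost in 5 of 12 leave-one-out fits (edgeR adjusted p up to 0.112). Car12, a carbonic anhydrase, and Plek, a substrate of protein kinase C, had knockout effects of 0.55 and 0.45 in fresh cells and 0.02 and 0.03 in stimulated cells. Pik3ap1, an adaptor for phosphoinositide 3-kinase, and Cln3, a lysosomal membrane protein, had 0.43 and 0.38 in fresh and -0.02 and -0.01 in stimulated cells. The calls of Car12, Plek, Pik3ap1 and Cln3 were lost in 4, 8, 7 and 10 of the 12 leave-one-out fits. The call of Ifnar2, a subunit of the type I interferon receptor, was lost in 12 of 12 leave-one-out fits (edgeR adjusted p up to 0.101). Olfr1033, named as an olfactory receptor gene, was the one of these 10 genes that was lower in the fresh knockout (-0.59), and its interaction was 0.62 (SE 0.14, edgeR adjusted p 0.0339), lost in 8 of 12 leave-one-out fits (edgeR adjusted p up to 0.0798).

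Tbx21 and Eomes were the called members of a list of 21 tested memory-phenotype and interleukin-15-responsive genes. Eomes, the partner factor of T-bet, had an interaction of -0.67 (SE 0.17, edgeR adjusted p 0.0484), lost in 10 of 12 leave-one-out fits (edgeR adjusted p up to 0.125). The list held 2 genes that shifted down and none that shifted up in the edgeR test (2 up and 9 down at an unadjusted p under 0.05, and 0 up and 4 down with DESeq2). Its median interaction was -0.13, with a median knockout effect of 0.45 in fresh and 0.25 in stimulated cells. Over all genes tested, 1.56% shifted down, and 1116 of 12759 were down at an unadjusted p under 0.05. The members did not all lose their difference on stimulation. Ccr2, a chemokine receptor, and Cd44, an adhesion receptor, both picked after their values were seen, had knockout effects of 1.12 in fresh and 1.33 in stimulated cells and of 0.46 in fresh and 0.37 in stimulated cells. Their interactions were 0.21 (SE 0.32, unadjusted p 0.514) and -0.09 (SE 0.13, unadjusted p 0.507), which does not show that the effects were equal.

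Among genes whose difference appeared after stimulation, Cd160 (chr3:96798763-96829351, minus strand) had the smallest p of all genes tested. It encodes a receptor of activated CD8 and NK cells that binds the same partner, HVEM, as LIGHT does. Cd160 was at 27.4, 28.8 and 27.96 CPM in fresh wild type, 35.8, 32.3 and 33.7 in fresh knockout, 65.9, 62.3 and 69.7 in stimulated wild type and 44.6, 40.4 and 39.8 in stimulated knockout. Stimulation raised it in both genotypes, and the knockout libraries were the higher ones when fresh and the lower ones when stimulated. The fresh effect of 0.27 (SE 0.07, edgeR adjusted p 0.0753) was not called and the stimulated effect of -0.66 (SE 0.07, edgeR adjusted p 8.97e-05) was. The interaction was -0.94 (SE 0.10, edgeR adjusted p 0.00095), kept in all 12 leave-one-out fits. The list of inhibitory receptors had 2 of 18 tested members that shifted down, Cd160 and 4632428N05Rik, the gene of the checkpoint protein VISTA, and none that shifted up (1 at an unadjusted p under 0.05, and 1 with DESeq2). 4632428N05Rik had an interaction of -0.31, lost without fresh wild type 2, stimulated wild type 3 or stimulated knockout 1 (edgeR adjusted p up to 0.082). The median of the list was -0.26, and 1.56% of all genes tested shifted down.

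Cytokine receptor genes had 4 of 27 tested members that shifted down, against 1.56% of all genes tested, and none that shifted up in the edgeR test (3 at an unadjusted p under 0.05, and 1 with DESeq2). Il6ra (chr3:89869324-89913196, minus strand), the alpha chain of the interleukin-6 receptor, was at 249, 238 and 245 CPM in fresh wild type, 245, 247 and 247 in fresh knockout, 11.1, 10.1 and 10.4 in stimulated wild type and 6.85, 7.17 and 5.98 in stimulated knockout. The fresh groups overlapped around the same level. Stimulation brought the gene to a small remnant in both genotypes, and that remnant was lower in every knockout library. The interaction was -0.68 (SE 0.08, edgeR adjusted p 0.00329). Il6st, the signalling chain gp130 of the same receptor, was at 448 to 475 CPM in fresh wild type, 395 to 423 in fresh knockout, 95.1 to 101 in stimulated wild type and 65.7 to 73.6 in stimulated knockout, with an interaction of -0.34 (SE 0.07, edgeR adjusted p 0.0201), lost without fresh wild type 2, stimulated wild type 3 or stimulated knockout 3 (edgeR adjusted p up to 0.0603). Its difference was larger in CPM when fresh (-53.3 CPM in fresh and -29.8 CPM in stimulated cells). Il2rg, the common gamma chain, was at 661 to 697 CPM in fresh wild type, 715 to 746 in fresh knockout, 548 to 595 in stimulated wild type and 459 to 477 in stimulated knockout, with an interaction of -0.37 (SE 0.07, edgeR adjusted p 0.0108). The calls of Il6ra and Il2rg were kept in all 12 leave-one-out fits.

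T cell receptor signalling genes shifted down as far as they were called. Of 26 tested members, 5 shifted down, Cd3d, Lcp2, Cd3g and Cd3e among them. None shifted up in edgeR, at an unadjusted p under 0.05 (11 down), with DESeq2 (8 down) or with limma-voom (7 down). Over all genes tested, 1.56% shifted down in edgeR and 1116 of 12759 were down at an unadjusted p under 0.05. DESeq2 called 360 genes down in all and limma-voom 185. The estimate was below 0 for 24 of the 26 members, against 6470 of 12759 genes. The median of the list was -0.14, against -0.0036 over all genes. Cd3d (chr9:44981769-44987052, plus strand) and Cd3g (chr9:44969572-44980431, minus strand) encode invariant chains that carry the receptor signal and lie side by side with Cd3e. Cd3d was at 428, 417 and 444 CPM in fresh wild type, 424, 397 and 427 in fresh knockout, 203, 206 and 213 in stimulated wild type and 159.8, 154 and 158 in stimulated knockout. The fresh groups overlapped, and every stimulated knockout library was below every stimulated wild-type library. The knockout effect was -0.05 in fresh and -0.40 in stimulated cells, and the interaction was -0.35 (SE 0.06, edgeR adjusted p 0.0102).

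Cd3g and Cd3e had interactions of -0.40 and -0.27, with Cd3g at 465 to 476 CPM in fresh wild type, 402 to 465 in fresh knockout, 163 to 173 in stimulated wild type and 115 to 128 in stimulated knockout. Lcp2, the adaptor SLP-76, differed from the CD3 genes in that stimulation raised it. It was at 275, 279 and 277 CPM in fresh wild type, 294, 300.1 and 290.1 in fresh knockout, 537, 512 and 583 in stimulated wild type and 456, 416 and 462 in stimulated knockout, and its interaction was -0.38 (SE 0.07, edgeR adjusted p 0.016). The call of Cd3g was lost without fresh wild type 2 or stimulated wild type 3 (edgeR adjusted p up to 0.0528), and those of Cd3d and Lcp2 were kept in all 12 leave-one-out fits. That of Cd3e was lost in 11 of the 12. Without fresh wild type 2 or stimulated wild type 3, 2 of the 26 members were called. The summed level of the list was 10354, 10458 and 10479 CPM in fresh wild type, 10735, 10793 and 10826 in fresh knockout, 6211, 6348 and 6437 in stimulated wild type and 5568, 5685 and 5853 in stimulated knockout. The knockout sum was the higher one when fresh and the lower one when stimulated, with no overlap in either state.

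Integrin genes had 2 of 14 tested members that shifted down, Itgb7 and Itgal, and none that shifted up in edgeR (1 at an unadjusted p under 0.05, 0 with DESeq2). The background for a shift down was 1.56% of genes. Itgb7, the beta chain of the gut-homing integrin, was at 738 to 797 CPM in fresh wild type, 711 to 757 in fresh knockout, 129.9 to 136 in stimulated wild type and 82.2 to 99.9 in stimulated knockout, and its interaction was -0.49 (SE 0.09, edgeR adjusted p 0.0108). Its loss in CPM was -45.6 CPM in fresh and -43.9 CPM in stimulated cells, the reverse order to the log2 scale. Itgal, the alpha chain of LFA-1, was at 844 to 868 CPM in fresh wild type, 931 to 937 in fresh knockout, 1003 to 1052 in stimulated wild type and 837 to 909 in stimulated knockout, with an interaction of -0.35 (SE 0.07, edgeR adjusted p 0.016), lost without stimulated wild type 3 (edgeR adjusted p up to 0.0615).

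Genes of the resting state moved both ways. Klf2 (chr8:72319062-72321654, plus strand), a transcription factor that keeps T cells quiescent and in circulation, was at 436, 356 and 452 CPM in fresh wild type, 422, 453 and 462 in fresh knockout, 10.3, 8.24 and 10.7 in stimulated wild type and 5.84, 5.23 and 6.07 in stimulated knockout. The fresh groups overlapped, and the small remnant after stimulation was lower in each knockout library. The interaction was -0.87 (SE 0.16, edgeR adjusted p 0.0105). S1pr1, the receptor by which T cells leave lymphoid organs and a target of Klf2, was at 512 to 576 CPM in fresh wild type, 486 to 581 in fresh knockout, 10.5 to 13.4 in stimulated wild type and 5.92 to 8.11 in stimulated knockout, with an interaction of -0.70 (SE 0.16, edgeR adjusted p 0.0336), lost in 6 of 12 leave-one-out fits (edgeR adjusted p up to 0.0879). In CPM its difference was -16.6 CPM in fresh and -4.59 CPM in stimulated cells. Slfn2, a quiescence gene, had an interaction of -0.35, lost in 4 of 12 leave-one-out fits (edgeR adjusted p up to 0.0689). Actn1, an actin crosslinker, shifted up, with 700.3 to 734 CPM in fresh wild type, 677 to 732 in fresh knockout, 128 to 151 in stimulated wild type and 188 to 209 in stimulated knockout and an interaction of 0.54 (SE 0.09, edgeR adjusted p 0.0077). The list of 21 naive and quiescence genes thus had 1 member up and 3 down, with a median of -0.05. The background was 0.698% of genes for a shift up and 1.56% for a shift down. At an unadjusted p under 0.05 the list had 4 up and 5 down, against 970 up and 1116 down of 12759 genes.

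Klf2, S1pr1 and Bcl2l11 shifted down and Irs2 shifted up among 20 genes that FOXO factors induce and AKT represses. Bcl2l11, the death-promoting BIM, was at 74.2, 80.02 and 65.4 CPM in fresh wild type, 79.3, 80.5 and 84.9 in fresh knockout, 110.3, 105 and 114 in stimulated wild type and 84.2, 62.9 and 81.1 in stimulated knockout. It was lower in each stimulated knockout library than in any stimulated wild-type library, and its interaction was -0.68 (SE 0.13, edgeR adjusted p 0.0137). Irs2, an adaptor of the insulin receptor, was at 90.9, 94.9 and 124 CPM in fresh wild type, 42.9, 87.3 and 37.2 in fresh knockout, 14.03, 18.7 and 13.5 in stimulated wild type and 21.6, 31.2 and 26.9 in stimulated knockout. Fresh knockout libraries 1 and 3 were low and library 2 lay near the wild type. Neither single effect passed the test (-0.88 in fresh and 0.78 in stimulated cells), while the interaction was 1.66 (SE 0.36, edgeR adjusted p 0.0259), lost in 5 of 12 leave-one-out fits (edgeR adjusted p up to 0.0731). The median of the list was -0.03, close to that of all genes. Its 1 member up and 3 down stand against 0.698% up and 1.56% down over all genes tested. At an unadjusted p under 0.05 it had 5 up and 6 down, against 970 up and 1116 down of 12759 genes.

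Effector genes also split. Serpinb9 (chr13:32997061-33017955, plus strand) encodes the inhibitor of granzyme B that protects killer cells from their own granules. It was at 30.5, 30.2 and 29.96 CPM in fresh wild type, 29.3, 31.2 and 30.9 in fresh knockout, 225, 212 and 209 in stimulated wild type and 339.8, 473 and 459 in stimulated knockout. The fresh groups were alike in level, and stimulated knockout libraries all lay above stimulated wild type, with library 1 the lowest of them. The knockout effect was 0.01 in fresh and 0.98 in stimulated cells, and the interaction was 0.96 (SE 0.14, edgeR adjusted p 0.00535). Serpinb6b (chr13:32956811-32979067, plus strand), the neighbouring gene of a related serpin, was at 35.8 to 40.98 CPM in fresh wild type, 33.4 to 39.8 in fresh knockout, 122 to 134 in stimulated wild type and 185 to 243 in stimulated knockout, with an interaction of 0.87 (SE 0.13, edgeR adjusted p 0.00607). As paralogs, the pair may share reads that map to both.

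Ltb (chr17:35194507-35196305, plus strand), the membrane ligand lymphotoxin beta, shifted down. It was at 345, 339 and 368 CPM in fresh wild type, 427, 412 and 499 in fresh knockout, 176, 183 and 154 in stimulated wild type and 127, 139 and 108 in stimulated knockout. The knockout libraries were higher when fresh (not called) and lower when stimulated, and the interaction was -0.80 (SE 0.12, edgeR adjusted p 0.00607). Nkg7, a granule membrane protein, had an interaction of -0.34, lost in 4 of 12 leave-one-out fits (edgeR adjusted p up to 0.0709). The 24 tested effector genes thus had 2 that shifted up and 3 that shifted down, Ccl4 included, with a median of -0.06. The background was 0.698% of genes for a shift up and 1.56% for a shift down. At an unadjusted p under 0.05 the list had 4 up and 7 down, against 970 up and 1116 down of 12759 genes. Cd27, a costimulatory receptor of the TNF receptor family, was at 217 to 222 CPM in fresh wild type, 212 to 223 in fresh knockout, 153 to 164 in stimulated wild type and 106 to 125 in stimulated knockout, with an interaction of -0.43 (SE 0.08, edgeR adjusted p 0.0105). Cd27 and Tnfsf14, both shifted down, were the called members among 23 costimulation genes, whose median was 0.10. At an unadjusted p under 0.05 that list had 4 up and 5 down.

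Interferon genes had the lowest medians of the pathway lists, and 1 library changed their counts. Of 25 tested genes induced by interferon gamma, among them the guanylate-binding proteins (GBPs), 6 shifted down (Gbp8, Psmb10, Gbp4, Gbp9, Gbp7 and Tgtp1). None shifted up in edgeR, against 1 at an unadjusted p under 0.05 and 0 with DESeq2. The median interaction was -0.47, from 0.12 in fresh and -0.32 in stimulated cells. Of 29 genes of the broad interferon response, 3 shifted down, Ddx58 and Ifit3 among them, and none up in edgeR, at an unadjusted p under 0.05 or with DESeq2. Their median was -0.42, from 0.36 and -0.07. Over all genes tested, 1.56% shifted down.

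The summed level of the 29 response genes was 4981 CPM in fresh wild type 1 and 3249 and 3280.1 in the other fresh wild-type libraries. The fresh knockout was at 4694, 4836 and 4942, so fresh wild type 1 lay with the knockout. After stimulation the sums were 1659, 1808 and 1862 in wild type and 1419.5, 1588 and 1625 in knockout, with no overlap. Without fresh wild type 1, 13 of the 29 response genes and 15 of the 25 interferon gamma genes shifted down, and the medians were -0.75 and -0.58. Without all 3 libraries with Y-linked reads, 0 and 2 were called in edgeR, with medians of -0.17 and -0.33.

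Gbp8, a guanylate-binding protein of the chr5 cluster, was at 128, 106 and 99.9 CPM in fresh wild type, 124, 119 and 119 in fresh knockout, 73.8, 62.5 and 64.2 in stimulated wild type and 39.05, 45.7 and 36.4 in stimulated knockout. Its stimulated groups did not overlap, and the interaction was -0.84 (SE 0.13, edgeR adjusted p 0.00607), kept in all 12 leave-one-out fits. Psmb10, a subunit of the immunoproteasome, was at 134 to 149 CPM in fresh wild type, 149 to 172 in fresh knockout, 58.3 to 64.5 in stimulated wild type and 41.9 to 50.5 in stimulated knockout, with an interaction of -0.54 (SE 0.10, edgeR adjusted p 0.0133), kept in all 12 leave-one-out fits.

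Gbp4, Gbp9, Gbp7 and Tgtp1 had interactions of -0.53, -0.60, -0.73 and -0.59, and their calls were lost in 2, 4, 10 and 9 of the 12 leave-one-out fits. The GBP genes and the Tgtp genes are families of similar sequence, so the split of reads among them is uncertain. Ifit3, an antiviral effector, was at 153, 71.3 and 84.2 CPM in fresh wild type, 162, 139 and 124 in fresh knockout, 10.5, 7.95 and 7.73 in stimulated wild type and 3.33, 4.97 and 3.66 in stimulated knockout. The highest fresh wild-type value was that of library 1. Its interaction was -1.61 (SE 0.38, edgeR adjusted p 0.0371), lost in 9 of 12 leave-one-out fits (edgeR adjusted p up to 0.0875). Ddx58, the RNA sensor RIG-I, was at 230.4 to 310.3 CPM in fresh wild type, 305 to 328 in fresh knockout, 28.1 to 32.1 in stimulated wild type and 22.1 to 25.6 in stimulated knockout, with an interaction of -0.62 (SE 0.14, edgeR adjusted p 0.0313), lost in 9 of 12 leave-one-out fits (edgeR adjusted p up to 0.083).

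Promoters of 2 of these genes are shown because they carry the letters that interferon-responsive factors bind, and that of Psmb10 holds no match. The windows run from 250 bases before to 50 after the start in RefSeq (GRCm38.p6), 5′ to 3′ on the strand of the gene, and 10180 of the 12759 tested genes have one. The motif searched, on both strands, was GAAANNGAA, the core of the interferon-stimulated response element, and matches are in capitals. It was chosen after results were seen, and it can overlap TTCNNNGAA, the palindrome that STAT dimers bind.
Ifit3 promoter, chr19:34583279-34583578, plus strand: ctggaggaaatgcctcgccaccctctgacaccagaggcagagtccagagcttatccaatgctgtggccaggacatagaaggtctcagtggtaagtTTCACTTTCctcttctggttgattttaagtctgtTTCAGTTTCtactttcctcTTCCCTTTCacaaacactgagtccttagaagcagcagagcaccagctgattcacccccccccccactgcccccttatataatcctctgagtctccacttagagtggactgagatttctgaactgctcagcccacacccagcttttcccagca
Ddx58 promoter, chr4:40239776-40240075, minus strand: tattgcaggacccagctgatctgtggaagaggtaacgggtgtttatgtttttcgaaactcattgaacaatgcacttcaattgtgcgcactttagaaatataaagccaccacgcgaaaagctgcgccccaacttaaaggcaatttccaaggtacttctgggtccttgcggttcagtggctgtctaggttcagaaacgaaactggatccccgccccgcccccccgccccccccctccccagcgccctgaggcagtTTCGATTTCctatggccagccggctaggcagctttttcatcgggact
GAAANNGAA was present in 12 of 20 promoters of the interferon response list (60.0%) and 11 of 17 of the interferon gamma list (64.7%), against 7.43% of all tested genes with a promoter. In all genes that shifted down it was present in 12.9% and in those that shifted up in 9.86%. TTCNNNGAA was present in 9 of 17 promoters of the interferon gamma list (52.9%) against 7.00% of all, in 8.59% of genes that shifted down and in 0 of 71 that shifted up. TGANTCA, an AP-1 site, was present in 11.0% of genes that shifted down, 2.82% of those that shifted up and 5.04% of all.

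Glycolysis and HIF-1 target genes were on the other side. Of 23 tested glycolysis genes, 3 shifted up (Pfkl, Pgam1 and Gapdh) and none shifted down in edgeR (1 at an unadjusted p under 0.05, and 0 with DESeq2). The background for a shift up was 0.698% of genes. At an unadjusted p under 0.05 there were 15 up, against 970 of 12759 genes overall. The median interaction was 0.38, from 0.02 in fresh and 0.47 in stimulated cells. Of 25 targets of HIF-1, the oxygen-regulated factor that also rises in activated T cells, 2 shifted up (Ankrd37 and Egln1). There were 16 up and 0 down at an unadjusted p under 0.05, and the median was 0.55, the highest of the lists of pathways.

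Pgam1 (chr19:41911871-41918665, plus strand), phosphoglycerate mutase, was at 93.96, 100.03 and 96.7 CPM in fresh wild type, 94.3, 98.8 and 94.5 in fresh knockout, 550.1, 517 and 441 in stimulated wild type and 669.8, 750.4 and 681 in stimulated knockout. The fresh groups overlapped, stimulation raised the gene in both genotypes, and it was highest in the stimulated knockout. The interaction was 0.49 (SE 0.10, edgeR adjusted p 0.0175), lost without fresh wild type 2 or fresh knockout 1 (edgeR adjusted p up to 0.0651). Pfkl (chr10:77986947-78009807, minus strand), the liver form of phosphofructokinase, was at 63.2, 63.6 and 63.8 CPM in fresh wild type, 61.03, 63.8 and 62.03 in fresh knockout, 201, 223 and 161 in stimulated wild type and 281, 327 and 294 in stimulated knockout, with all stimulated knockout libraries above all stimulated wild type. Its interaction was 0.65 (SE 0.13, edgeR adjusted p 0.016), lost without fresh wild type 2 (edgeR adjusted p up to 0.0514). Gapdh, glyceraldehyde phosphate dehydrogenase, had an interaction of 0.38, lost in 11 of 12 leave-one-out fits (edgeR adjusted p up to 0.142), and it has pseudogene copies with which reads can be shared.

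Egln1, the oxygen sensor that marks HIF for degradation and is itself a HIF target, was at 63.6, 72.7 and 71.04 CPM in fresh wild type, 61.1, 63.1 and 59.6 in fresh knockout, 82.4, 90.1 and 74.1 in stimulated wild type and 99.96, 137 and 104 in stimulated knockout. Knockout libraries were the lower ones when fresh and the higher ones when stimulated, and library 2 was the highest. The interaction was 0.64 (SE 0.14, edgeR adjusted p 0.0299), lost in 5 of 12 leave-one-out fits (edgeR adjusted p up to 0.095). Ankrd37, a short HIF-1 target, was at 3.10 to 3.40 CPM in fresh wild type, 2.49 to 2.97 in fresh knockout, 6.61 to 9.62 in stimulated wild type and 12.6 to 14.6 in stimulated knockout, with an interaction of 0.97 (SE 0.21, edgeR adjusted p 0.0254), lost in 5 of 12 leave-one-out fits (edgeR adjusted p up to 0.0744). Hilpda, a lipid droplet protein induced by hypoxia and not on that list, was at 12.3 to 14.1 CPM in fresh wild type, 12.5 to 13.8 in fresh knockout, 17.7 to 23.4 in stimulated wild type and 34.6 to 55.1 in stimulated knockout, with an interaction of 1.04 (SE 0.22, edgeR adjusted p 0.0244), lost in 4 of 12 leave-one-out fits (edgeR adjusted p up to 0.0681).

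The summed level of the glycolysis list was 8889, 10640.3 and 11261 CPM in stimulated wild type and 12898, 13324 and 16922 in stimulated knockout, against 3027 to 3093 and 3108 to 3226 in the fresh groups. For HIF-1 targets the stimulated sums were 1494, 1710.1 and 1811 and 2023, 2047 and 3104. The highest knockout sum of both lists was that of library 2, and the other knockout libraries were still above all wild-type libraries. Without stimulated knockout 2, the medians were 0.32 and 0.41, and 2 members of each list were called. Without fresh wild type 2, no member of either list was called in edgeR, and the medians were 0.38 and 0.60. With the 3 Y-linked libraries left out none was called either, with medians of 0.40 and 0.60.

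**Figure D3:**
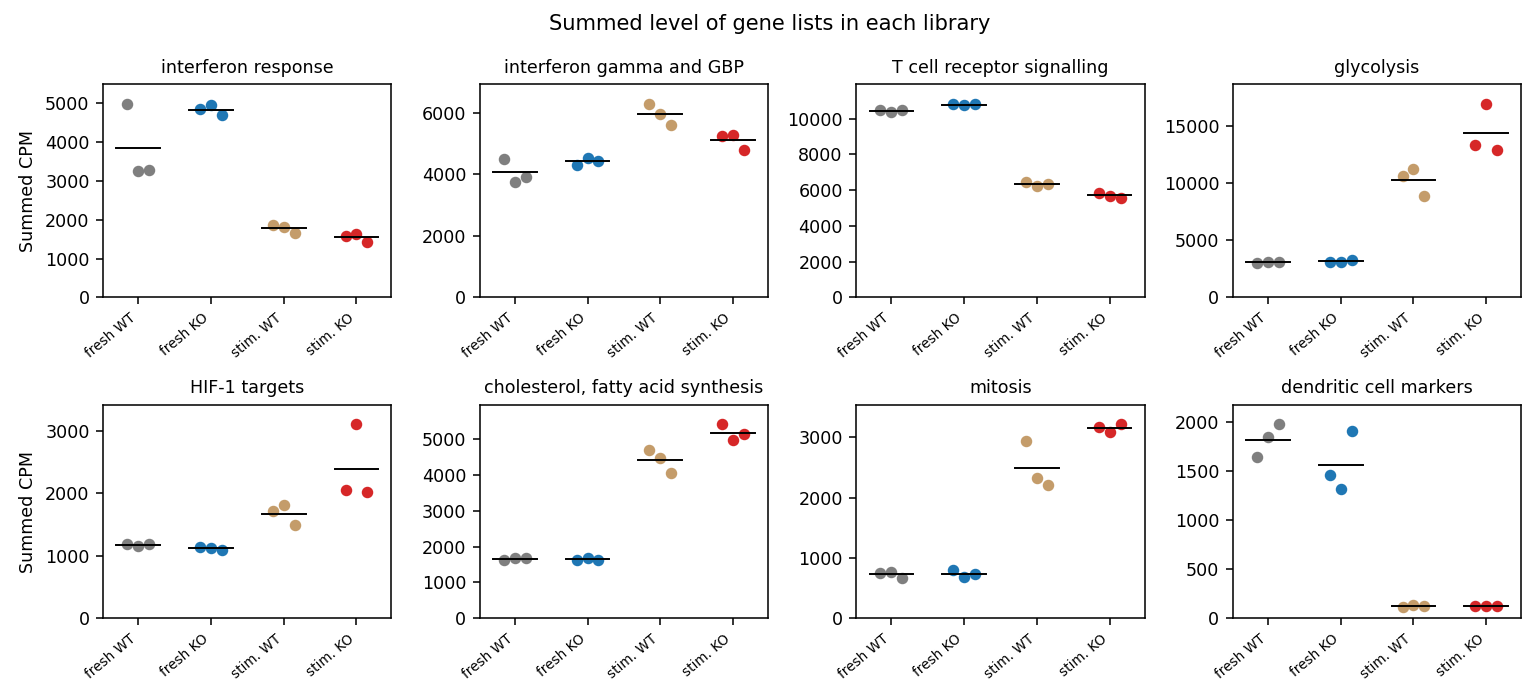
Summed CPM of all counted members of 8 gene lists, tested or not, in each of the 12 libraries. A point marks a library and a line the group mean. The stimulated knockout lies above the stimulated wild type for glycolysis, HIF-1 targets, cholesterol and fatty acid synthesis and mitosis, and below it for both interferon lists and T cell receptor signalling.

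The promoters of Ankrd37, Egln1 and Pgam1 are shown, picked because they hold ACGTG, with matches in capitals. That of Gapdh holds it too, and those of Pfkl and Hilpda do not. Hilpda has 2 promoters, and only the first one listed was searched. ACGTG is the core of the hypoxia response element on either strand, and it also lies within the E-box CACGTG, which other factors bind.
Ankrd37 promoter, chr8:45999801-46000100, minus strand: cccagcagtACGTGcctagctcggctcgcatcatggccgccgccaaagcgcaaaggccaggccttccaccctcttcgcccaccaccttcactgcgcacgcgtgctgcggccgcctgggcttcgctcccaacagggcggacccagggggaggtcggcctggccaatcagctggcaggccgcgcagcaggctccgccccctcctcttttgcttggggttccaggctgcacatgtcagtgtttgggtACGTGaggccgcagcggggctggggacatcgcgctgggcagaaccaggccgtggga
Egln1 promoter, chr8:124949205-124949504, minus strand: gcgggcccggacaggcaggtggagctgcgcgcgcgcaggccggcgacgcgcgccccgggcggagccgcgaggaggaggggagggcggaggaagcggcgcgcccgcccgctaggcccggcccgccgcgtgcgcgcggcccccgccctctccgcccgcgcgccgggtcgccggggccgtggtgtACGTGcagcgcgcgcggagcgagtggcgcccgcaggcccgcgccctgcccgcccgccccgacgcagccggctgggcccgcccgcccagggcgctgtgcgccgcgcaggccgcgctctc
Pgam1 promoter, chr19:41911621-41911920, plus strand: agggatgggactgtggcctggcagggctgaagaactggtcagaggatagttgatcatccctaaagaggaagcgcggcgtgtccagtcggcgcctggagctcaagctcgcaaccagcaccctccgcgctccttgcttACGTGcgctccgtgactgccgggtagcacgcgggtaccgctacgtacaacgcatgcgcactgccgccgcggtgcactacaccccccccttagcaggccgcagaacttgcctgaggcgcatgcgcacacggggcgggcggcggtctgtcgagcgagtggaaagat
ACGTG was present in 14 of 22 promoters of the HIF-1 target list (63.6%) and 11 of 22 of the glycolysis list (50.0%), against 25.96% of all tested genes with a promoter. The T cell receptor signalling list, which shifted the other way, had it in 9 of 21 (42.9%). It was present in 32.4% of genes that shifted up and 17.2% of those that shifted down. A match describes letters in a window and not binding.

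Lipid synthesis genes shared this direction. Of 30 tested genes of cholesterol and fatty acid synthesis, 2 shifted up (Fdps and Scd1). At an unadjusted p under 0.05, 19 were up and 0 down, and the estimate was above 0 for 29. Over all genes tested, 0.698% shifted up, 970 of 12759 were up and 1116 down at that p, and 6289 estimates were above 0. The median of the list was 0.32, from -0.06 in fresh and 0.18 in stimulated cells. Fdps, which makes farnesyl diphosphate on the way to cholesterol, was at 25.3, 25.3 and 26.2 CPM in fresh wild type, 24.5, 25.7 and 25.8 in fresh knockout, 127, 129.9 and 109.9 in stimulated wild type and 183, 176 and 178 in stimulated knockout. The fresh groups overlapped in a narrow band, and the stimulated knockout was above the stimulated wild type in each library. The interaction was 0.57 (SE 0.09, edgeR adjusted p 0.00607), kept in all 12 leave-one-out fits. Scd1, the desaturase that makes oleate, was at 20.1, 17.1 and 15.6 CPM in fresh wild type, 15.5, 18.8 and 24.1 in fresh knockout, 8.97, 7.80 and 5.82 in stimulated wild type and 17.8, 16.3 and 18.5 in stimulated knockout. The stimulated wild-type libraries were the lowest of all, and the stimulated knockout libraries lay within the range of the fresh knockout. The interaction was 1.08 (SE 0.23, edgeR adjusted p 0.0238), lost without fresh wild type 2, fresh knockout 1 or stimulated wild type 3 (edgeR adjusted p up to 0.0623). Without stimulated wild type 1, 7 members were called, and the median was 0.40.

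Mitosis genes had 1 called member. Of 30 tested, 1 shifted up (Cdk1), 14 were up and 0 down at an unadjusted p under 0.05, and all 30 estimates were above 0, with a median of 0.32. Over all genes tested, 0.698% shifted up, 970 of 12759 were up and 1116 down at that p, and 6289 estimates were above 0. Cdk1, the kinase that drives entry into mitosis, was at 9.45 to 11.4 CPM in fresh wild type, 7.74 to 9.78 in fresh knockout, 62.3 to 73.2 in stimulated wild type and 84.1 to 86.5 in stimulated knockout, with an interaction of 0.56 (SE 0.13, edgeR adjusted p 0.0384), lost in 9 of 12 leave-one-out fits (edgeR adjusted p up to 0.132). The summed level was 2209, 2326 and 2933 CPM in stimulated wild type and 3091, 3166 and 3214 in stimulated knockout, and the highest wild-type sum was that of library 1. Without this library 7 mitosis genes were called and the median was 0.45. Among 30 S phase genes 1 shifted up (Prim1, a primase subunit, 0.41, lost in 11 of 12 leave-one-out fits (edgeR adjusted p up to 0.111)), and the median was 0.13.

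The genes with the largest shifts up belonged to no one list. Jag2 (chr12:112907803-112929812, minus strand), a Notch ligand, was at 5.22, 6.49 and 7.46 CPM in fresh wild type, 4.83, 3.49 and 3.88 in fresh knockout, 4.46, 5.06 and 3.24 in stimulated wild type and 8.32, 14.8 and 8.26 in stimulated knockout. The knockout was lower when fresh (not called) and higher when stimulated in each library, and the interaction was 1.95 (SE 0.33, edgeR adjusted p 0.00886). Fam46a (chr9:85320439-85327150, minus strand), a poly(A) polymerase, was at 80.5, 72.3 and 76.9 CPM in fresh wild type, 56.6, 56.7 and 60.5 in fresh knockout, 13.3, 11.7 and 9.85 in stimulated wild type and 23.4, 38.03 and 20.3 in stimulated knockout. Stimulation lowered it in both genotypes, and less so in knockout, with an interaction of 1.63 (SE 0.24, edgeR adjusted p 0.00554). Plaur (chr7:24460937-24475970, plus strand), the urokinase receptor, was at 29.3, 37.8 and 28.03 CPM in fresh wild type, 24.00, 33.3 and 18.8 in fresh knockout, 7.46, 8.33 and 6.86 in stimulated wild type and 14.7, 19.98 and 17.5 in stimulated knockout, with an interaction of 1.53 (SE 0.26, edgeR adjusted p 0.00868). Plcg2, the phospholipase C gamma that is most used in B cells, was at 29.2 to 30.2 CPM in fresh wild type, 23.9 to 28.9 in fresh knockout, 8.86 to 12.9 in stimulated wild type and 17.8 to 19.9 in stimulated knockout, with an interaction of 1.06 (SE 0.16, edgeR adjusted p 0.00607). Stimulated knockout 2 was the highest stimulated library for all 4 genes. The calls of all 4 were kept in all 12 leave-one-out fits, and without stimulated knockout 2 the interactions were 1.63, 1.32, 1.42 and 1.01.

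Papss2, which makes the donor for sulfation, was at 2.06 to 2.49 CPM in fresh wild type, 2.35 to 2.59 in fresh knockout, 3.01 to 5.06 in stimulated wild type and 9.64 to 12.6 in stimulated knockout, with an interaction of 1.35 (SE 0.26, edgeR adjusted p 0.016). Ppp1r3b, a glycogen-targeting subunit of a phosphatase, was at 4.49, 4.31 and 5.33 CPM in fresh wild type, 5.61, 6.38 and 5.94 in fresh knockout, 3.81, 4.77 and 3.03 in stimulated wild type and 10.8, 23.5 and 12.7 in stimulated knockout. Library 2 was again the highest of the stimulated knockout. The interaction was 1.65 (SE 0.36, edgeR adjusted p 0.0269), lost in 5 of 12 leave-one-out fits (edgeR adjusted p up to 0.0773). Lad1, a filament-anchoring protein, was raised many-fold by stimulation, from 5.41 to 6.92 to 127 to 146 CPM in wild type and from 3.98 to 4.79 to 164 to 233 in knockout, with an interaction of 1.00, lost without fresh wild type 2, fresh wild type 3 or fresh knockout 2 (edgeR adjusted p up to 0.0706). The other genes of the 15 highest were Gpr56, Unc13a, Basp1, Clcn5 and Tubb6, with interactions of 1.37, 1.20, 1.04, 1.02 and 1.00. Their calls were lost in 9, 7, 6, 3 and 2 of the 12 leave-one-out fits. The predicted gene 1190005I06Rik, outside the naming limits, had the highest interaction of all called genes, 2.94, at levels under 2 CPM in each library, and its call was lost in 10 of 12. Junb, an AP-1 subunit, was the called member of 26 immediate early genes, with 643, 592 and 683 CPM in fresh wild type, 505, 592 and 510.3 in fresh knockout, 115, 147 and 128 in stimulated wild type and 167, 178 and 197 in stimulated knockout. Its interaction was 0.73 (SE 0.12, edgeR adjusted p 0.00886), kept in all 12 leave-one-out fits.

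At the other end, Itm2a (chrX:107397195-107403360, minus strand), a membrane protein of activated T cells, was at 46.9, 44.1 and 44.4 CPM in fresh wild type, 58.8, 66.4 and 58.8 in fresh knockout, 164, 115 and 134 in stimulated wild type and 102, 79.3 and 91.6 in stimulated knockout. It was higher in fresh knockout (not called) and lower in stimulated knockout in each library, with an interaction of -1.04 (SE 0.15, edgeR adjusted p 0.00557). Ms4a4c, a membrane protein of the MS4A family, was at 79.9, 43.01 and 61.9 CPM in fresh wild type, 82.2, 115 and 105 in fresh knockout, 77.7, 58.9 and 69.1 in stimulated wild type and 44.04, 46.1 and 49.1 in stimulated knockout. It too changed order between the states, and neither single effect passed the test (0.72 in fresh and -0.56 in stimulated cells), while the interaction was -1.28 (SE 0.24, edgeR adjusted p 0.0133). Cd101, an immunoglobulin-like receptor, was at 6.88 to 9.17 CPM in fresh wild type, 11.3 to 12.3 in fresh knockout, 4.74 to 5.81 in stimulated wild type and 2.62 to 4.61 in stimulated knockout, with an interaction of -1.14 (SE 0.24, edgeR adjusted p 0.0204), lost without fresh wild type 2 or fresh wild type 3 (edgeR adjusted p up to 0.0651). The others of the 15 lowest were Art2b, Itih5, Sez6l2 and Rab19, with interactions from -1.07 to -0.95, and their calls were lost in 9, 8, 9 and 4 of the 12 fits.

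**Figure D4:**
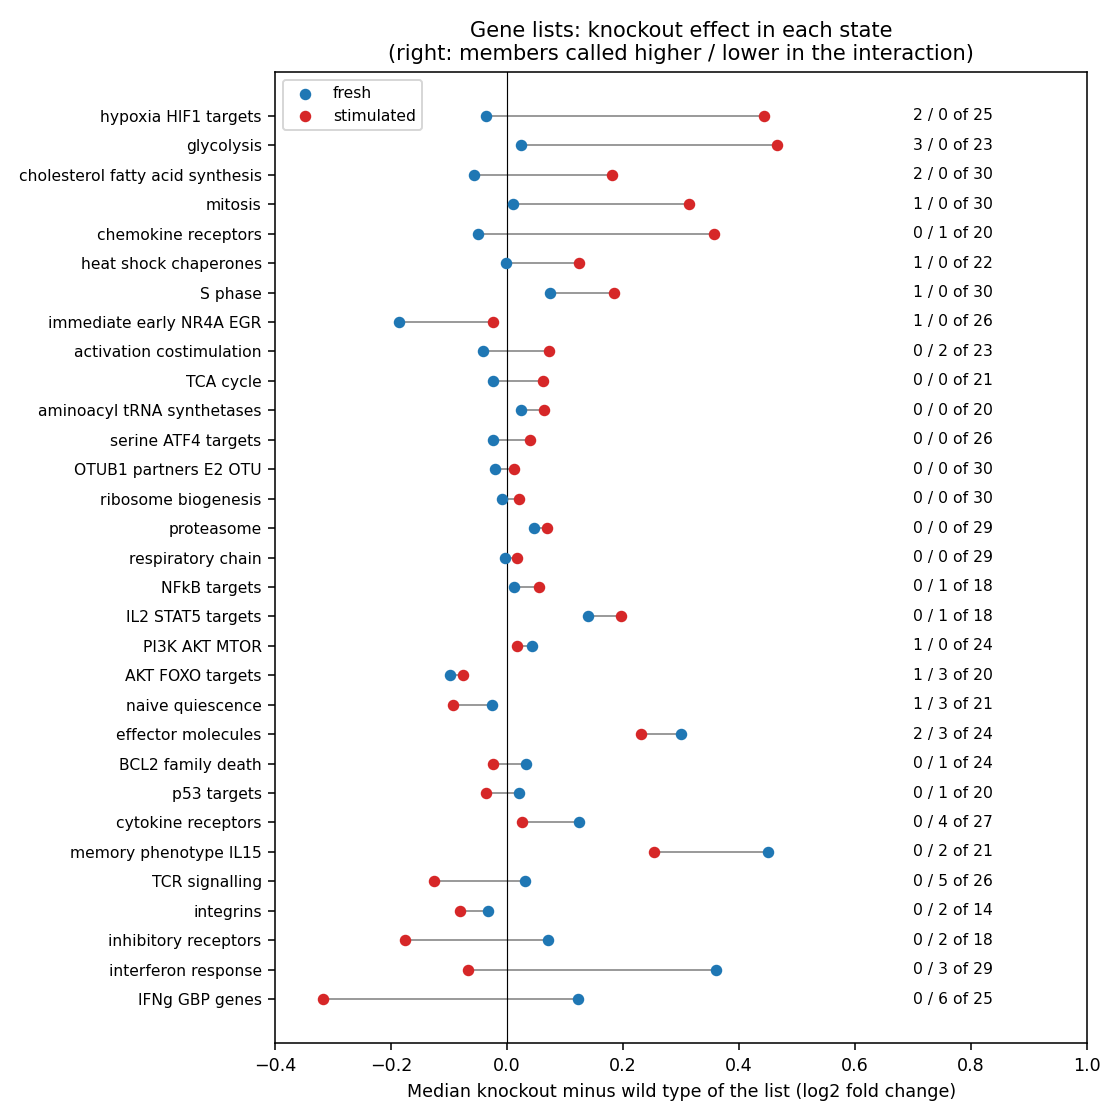
Each row is a gene list, with the median knockout minus wild type log2 fold change of its tested members in fresh cells (blue) and in stimulated cells (red), and the counts of members called higher and lower in the interaction at the right. HIF-1 targets, with a median interaction of 0.55, stand at the top, and interferon gamma and GBP genes, with -0.47, at the bottom.

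Pathway lists without a called member had medians near 0. They were the TCA cycle (median 0.05), respiratory chain (0.02), serine synthesis and ATF4 targets (0.04), tRNA synthetases (0.04), ribosome biogenesis (0.03), proteasome (0.03) and OTUB1 partners, E2 enzymes and OTU deubiquitinases (0.03). At an unadjusted p under 0.05, edgeR gave 5, 3, 5, 0, 1, 1 and 5 up and 0, 0, 2, 1, 1, 1 and 3 down in that order. DESeq2 called 1 member each of the TCA cycle, respiratory chain and ribosome biogenesis, 2 of the serine and ATF4 list and 0 of the others. The smallest p among OTUB1 partners was that of Ube2d2a, an E2 enzyme, with an interaction of 0.23 (SE 0.08, edgeR adjusted p 0.155). Mthfd2, the one-carbon enzyme that ATF4 induces, was at 23.7 to 26.8 CPM in fresh wild type, 19.7 to 22.96 in fresh knockout, 375 to 389.8 in stimulated wild type and 391 to 421 in stimulated knockout, just short of the threshold with an interaction of 0.33 (SE 0.08, edgeR adjusted p 0.0509).

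Some lists held a single called gene. The background was 0.698% of genes for a shift up and 1.56% for a shift down. Nfkbiz, a nuclear regulator of NF-kappaB, shifted down (-0.49), as did Trp53inp1, a p53 target (-0.54). Pik3r5, a regulatory subunit of phosphoinositide 3-kinase gamma, shifted up (0.46), as did Tcp1, a subunit of the chaperonin that folds actin and tubulin (0.28). The call of Nfkbiz was kept in all 12 leave-one-out fits, and those of Trp53inp1, Pik3r5 and Tcp1 were lost in 3, 4 and 7. These 4 lists were NF-kappaB targets (18 tested), p53 targets (20), the PI3K, AKT and mTOR pathway (24) and heat shock genes (22). Their medians were 0.00, -0.11, -0.01 and 0.13. At an unadjusted p under 0.05, edgeR gave 3, 1, 4 and 8 up and 2, 2, 3 and 0 down in that order. Of all 12759 genes, 970 were up and 1116 down at that p. Within the 24 BCL2 family and death genes, Bcl2l11 was the called member, with a median of -0.08. Il2rg was that of 18 interleukin-2 and STAT5 targets, with a median of -0.00. S1pr1, which is not itself a chemokine receptor, was the called member of the list of 20 chemokine receptor genes. It shifted down while the median of the list was 0.29, and its call was lost in 6 of the 12 leave-one-out fits.

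Markers of other cell types moved with the state. The summed level of 14 tested dendritic cell markers was 1638 to 1974 CPM in fresh wild type and 1315 to 1906 in fresh knockout, and 109 to 129 and 119 to 125 in the stimulated groups. For 10 B cell markers the ranges were 166 to 196 and 177 to 245, then 30.1 to 36.2 and 24.6 to 32.8. For 14 myeloid markers, 12 of them tested, they were 224 to 263 and 207 to 259, then 51.97 to 64.7 and 40.9 to 47.8. For 12 NK cell markers, 10 of them tested, they were 373 to 393 and 401 to 451, then 196 to 212 and 168 to 191. The NK sum was thus higher in the knockout when fresh and lower when stimulated, with no overlap in either state. Nkg7 alone, which is also on the effector list, differed by 37.1 CPM in fresh and -23.4 CPM in stimulated cells. The median knockout effect of the tested NK markers was -0.007 in fresh and -0.28 in stimulated cells, so the sum does not describe the NK markers as a set. None of the 14 dendritic markers was called in edgeR (3 up and 0 down at an unadjusted p under 0.05, and 1 up with DESeq2). One marker each of B cells (Cd22, -0.87), myeloid cells (Ctss, -0.51) and NK cells (Nkg7) shifted down. These were 1 of 10, 1 of 12 and 1 of 10 tested, against 1.56% of all genes tested. At an unadjusted p under 0.05 each of these 3 lists had 0 up and 1 down. The calls of Cd22 and Ctss were each lost in 7 of the 12 leave-one-out fits. No CD4 T cell (5 tested), erythroid (2), platelet (1) or sex-linked (5) marker was called in edgeR, at an unadjusted p under 0.05 or with DESeq2. The medians of the first 3 were -0.19, -0.46 and 0.27. Y-linked reads were near 0 in stimulated wild type, so the fitted median of 8.28 for the sex-linked list gives no size. The haemoglobin genes Hba-a1 and Hba-a2, the NK receptor genes Klra4 and Klra8 and the platelet gene Gp1bb had 0 counts in all libraries. The part of these cells in the interaction was not tested.

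Some genes that shifted down lay next to each other. Of the 197 with a position, 44 had another such gene within 100000 bases, and 5.61% of all tested genes within that distance of a gene that shifted down had themselves shifted down, against 1.56% overall. For genes that shifted up, 2 of 89 had one, the pair Serpinb6b and Serpinb9, and the share was 0.538% against 0.698%. The runs included Cd3g, Cd3d and Cd3e on chr9, Ms4a4c, Ms4a4b and Ms4a6b on chr19, Gbp8, Gbp9 and Gbp4 on chr5, Qprt, Spn and AI467606 on chr7 and the receptor genes Cd84 and Slamf1 on chr1, all named after their values were seen. Some neighbours overlap or are paralogs (Gm14446 and Ifit3, A430078G23Rik and Arhgef18), and the strand setting of the counting is not given, so such pairs may share reads.

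The calls depended on single libraries to different degrees. Of the 89 genes that shifted up, 23 were called in each of the 12 fits that left out 1 library, and of the 199 that shifted down 77 were. Lost in 6 or more of these fits were 39 and 69. Called genes were well expressed, with a median level of 6.03 (up) and 6.67 (down) on the log2 CPM scale, against 4.79 for all genes tested. The last gene called was Klf6, a transcription factor, with an interaction of 0.58 (SE 0.14, edgeR adjusted p 0.0497), and the first not called was Rnf166, a ubiquitin ligase, with -0.33 (SE 0.08, edgeR adjusted p 0.0506).

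**Figure D5:**
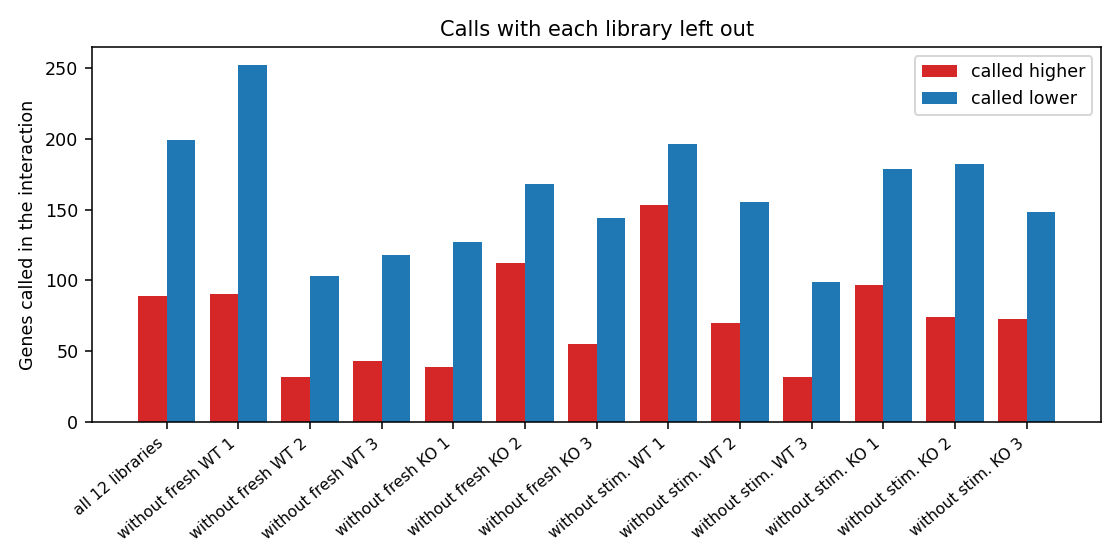
Bars show the number of genes called higher (red) and lower (blue) in the interaction with all 12 libraries and with each library left out. With all libraries there were 89 and 199, and the counts ran from 32 to 153 and from 99 to 252 when 1 library was left out.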

How the data were processed

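For every library the authors deposited unnormalized whole-number counts by gene symbol. Software listed in the submitters' processing notes was TopHat, TopHat2, HTSeq and DESeq2, with genome mm10. Annotation, versions and strandedness of the counting were not given in the sources used here, so overlapping, antisense or closely similar genes may share or lose reads. The summary lines that name no gene (5.22% to 6.43% of a file) were left out.

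The analysis used edgeR 4.0.16 under R 4.3.3. filterByExpr, given the 4 groups, kept 12759 genes, and TMM factors were 0.988 to 1.01. The 12 libraries entered 1 quasi-likelihood fit of group means (8 residual degrees of freedom), and contrasts were tested two-sided. Calls required a Benjamini-Hochberg adjusted p under 0.05 over all genes tested, and "edgeR adjusted p" stands for this. CPM values are scaled to 1e+06 counts with TMM factors. SE is the absolute log2 estimate divided by the square root of the F statistic of its quasi-likelihood test.

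Groups came from the source labels, and replicates were numbered in order within a group only as names. The contrast and the gene lists were chosen with earlier results of these data known. Lists are described by counts and medians and were given no test of their own. Named genes are Otub1, the 15 highest and 15 lowest called interactions where mean log2 CPM was 2 or more (without predicted genes, receptor segments and sex-linked genes), up to 4 called members of each list by smallest p or the member with the smallest p where none was called, up to 10 genes called in both states with opposite signs, up to 10 called in fresh cells with an unadjusted p of at least 0.05 in stimulated cells, and the genes next to the threshold. Some genes named by this rule are not reported here. Alternatives were RLE size factors, DESeq2 1.42.0, limma-voom (limma 3.58.1), other filters on low counts, a term for or omission of libraries with Y-linked reads, and omission of each library. Positions and promoters are those of RefSeq on GRCm38.p6, matched by symbol (12708 of the tested genes had a position).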

Additional observations from a re-analysis of the deposited data

Results flagged for a closer look

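The knockout effect passed the test in both states and also differed between them, by the interaction contrast itself, for 6 genes. The interaction was -1.47 for Otub1 and -1.46 for Aqp9, both with the same direction in the 2 states. It was -1.42 for Baiap3, -0.92 for Tnfsf14 and -0.37 for Gnptab, each higher in the fresh knockout and lower in the stimulated knockout. It was 0.93 for Coro2a, which was lower in the fresh knockout and higher in the stimulated knockout.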

How the results depend on the processing

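The interaction counts of 89 genes up and 199 down were within 1.5 times of these values with RLE size factors (80 and 208), limma-voom (80 and 185), a filter of 1 CPM in 6 libraries (103 and 206) and a term for Y-linked reads (92 and 196). DESeq2 called 188 and 360, with 86 and 197 of the genes called by edgeR among them. With no filter on low counts 151 were up, and 292 were down. Omitting the 3 libraries that had Y-linked reads gave 55 and 67, with 35 and 60 shared genes, and fewer libraries were fitted. Leaving out 1 library at a time gave 32 to 153 up and 99 to 252 down. The up count moved by over 1.5 times without fresh wild type 2 (32) or 3 (43), fresh knockout 1 (39) or 3 (55), or stimulated wild type 1 (153) or 3 (32). The down count did so without fresh wild type 2 (103) or 3 (118), fresh knockout 1 (127) or stimulated wild type 3 (99). The cause of these moves was not tested. The interactions of 97 genes chosen by the naming rule were refitted under the alternatives, and none changed its direction. Most were chosen for large or low-p interactions in these same libraries, which the alternatives reuse. A kept direction was thus likely from the choice itself. The direction of other genes in the text, among them Ccr2, Cd44, Gbp7, Tgtp1, Cd3e and G0s2, was not followed across the alternatives.

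In fresh cells 125 genes were higher and 28 lower in the knockout. DESeq2 gave 227 and 102, the fit without Y-linked libraries, an alternative chosen after seeing the data, gave 53 and 37, and leaving out 1 library gave 21 to 170 and 8 to 76. In stimulated cells 648 were higher and 539 lower. Leaving out 1 library gave 258 to 796 and 256 to 532, the fit without Y-linked libraries gave 359 lower, and a fit of the 6 stimulated libraries alone gave 358 lower. No paired analysis was possible because the labels give no replicate number that is shared between groups. Depth limits the precision for genes near 1 CPM, with 15064488 gene counts in the smallest library.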
